A study of Mus musculus with 18 samples.

Results

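Hddc3, Gm10036, RP23-39F24.2, RP24-447G12.2, Gm6594, Dctd, Pop4, Pon2 and arsb are 9 of the 21923 genes in a count table of astrocyte ribosome-bound RNA from the cortex of GLUT1 conditional knockout (cKO) and control mice. They were chosen from the difference between these genotypes in these libraries, as genes that stood apart by genotype and were placed outside chromosome 4 or had no known position. Their differences are therefore given as a description, with no test. Hddc3, Gm10036, RP23-39F24.2, RP24-447G12.2 and Gm6594 had higher values in cKO, as did Dctd, while Pop4, Pon2 and arsb had lower values.

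The study asked how astrocytes fare without the glucose transporter GLUT1, encoded by Slc2a1. Mice labelled cKO (GLUT1 flox/flox;GLAC +/wt) carried a floxed Slc2a1 and a tamoxifen-inducible Cre recombinase expressed from the GLAST (Slc1a3) locus, and control mice (GLAC +/wt) carried the Cre without the floxed gene. Mice of both genotypes received a Cre-dependent virus with an hGFAP promoter that tags the ribosomal protein L10a with EGFP, and, 7 days later, tamoxifen for 5 days when 8 to 10 weeks old. RNA was taken 60 days after tamoxifen by translating ribosome affinity purification (TRAP), in which tagged ribosomes are immunoprecipitated (IP) together with the mRNA they carry. Only cells in which Cre had acted could express the tag. The comparison rests on 4 cKO IP and 3 control IP libraries, named here by the number of their column: 1, 5, 9 and 17 for cKO, and 11, 15 and 19 for control.

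The members with a known function act in unrelated places in the cell. Hddc3, also called MESH1, is the metazoan relative of a bacterial enzyme that breaks down the starvation signal ppGpp, and it removes a phosphate from NADPH. Dctd deaminates dCMP to dUMP, the precursor of thymidylate, and Pop4 is a protein subunit of RNase P and RNase MRP, which process tRNA and ribosomal RNA. Pon2 is an intracellular lactonase of the paraoxonase family with a role against oxidative stress, and Arsb, listed as arsb, is the lysosomal arylsulfatase that removes sulfate from dermatan and chondroitin sulfate. Gm10036 and Gm6594 are listed by RefSeq as pseudogenes, and RP23-39F24.2 and RP24-447G12.2 carry the names of genomic clones.

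The libraries held 12570324 to 40734322 estimated counts. Of the genes in the table, 13296 had enough counts to be tested, all 9 members among them. Gm6594, RP24-447G12.2 and Gm10036 entered only through their counts in cKO. Summed astrocyte markers (8 genes, all detected in every library) lay between 30002 and 47770 CPM (counts scaled to the size of the library) in control and between 30605 and 61323 in cKO, the highest in library 1. Of the neuron markers, 6 of 6 were detected in every library, and their sum was 2684 to 3245 CPM in control and 2224 to 3317 in cKO. Oligodendrocyte markers (6 of 6) summed to 351 to 522 and 193 to 568 CPM, microglial markers (5 of 5) to 48.3 to 57.1 and 39.4 to 77.0 CPM, and endothelial markers (3 of 5 detected in every library) to 10.9 to 18.7 and 12.3 to 24.3 CPM, in control and cKO respectively. The sums of the genotypes overlapped for every list and 0 markers passed edgeR's quasi-likelihood test, so none of these sums separated the libraries as the members did. The study had left out IP samples in which neuronal genes were high, so the neuron sums describe only libraries kept after that choice. Counted over the whole gene, Slc2a1 was 59.5 ± 2.02 CPM (SD, n = 3) in control and 59.0 ± 2.30 CPM (SD, n = 4) in cKO, a value that includes reads outside the floxed stretch and does not check the labels. For RNA-seq the study counted only reads from some of the Slc2a1 exons and reported a strong reduction of these in cKO IP samples. It also reported a strong fall of Slc2a1 by qPCR in IP samples. By western blot and immunolabelling it reported less GLUT1 protein in cKO brain. Fewer cells of a type and less RNA per cell cannot be told apart in such libraries.

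Each of the 9 members, selected on their difference between the genotypes, separated these without overlap. Every cKO library lay above every control library for 6 of them and below for 3. Among all genes tested, 2.35% were higher in every cKO library and 2.76% lower in every cKO library. At an adjusted p under 0.05 by edgeR's quasi-likelihood test 6 genes were called, 0.0451% of those tested, and 3 of these were members, namely Hddc3, Gm10036 and RP23-39F24.2. By edgeR's exact test, the test the study used, 18 genes were called here, 0.135% of those tested, and all 9 members were among them. For its comparison the study summed reads of protein-coding transcripts, with an earlier edgeR version and its own filter. It reported fewer genes at this threshold, and the cause was not tested. Nothing is read from these counts, since the same contrast chose the members. At the edge of the exact test's list, arsb was the last member inside with a Benjamini-Hochberg adjusted p of 0.0252, and Tox3, at 0.0764, was the first gene outside.

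Hddc3 had the highest level in cKO of the members that were higher there. Its level was 31.5, 26.7 and 32.1 CPM in control libraries 11, 15 and 19, and 161, 138, 179 and 150 CPM in cKO libraries 1, 5, 9 and 17. The groups were far apart: the lowest cKO library stood 4.31-fold above the highest control library. The mean was 30.1 ± 2.94 CPM (SD, n = 3) in control and 157 ± 17.4 CPM (SD, n = 4) in cKO, which is 5.23-fold, or 2.39 on the log2 scale (SE 0.14). These levels rest on 667.2 to 1240.1 counts per control library and 2030.3 to 3609.1 per cKO library, so counting noise is small beside the gap. Hddc3 lies on chromosome 7 from 80343075 to 80346716 (GRCm38.p6) and encodes a protein.

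Dctd was the other member with more RNA in cKO that RefSeq lists as protein-coding, and its difference was much smaller. The clone-named members have no RefSeq listing. It was at 24.6, 20.7 and 20.1 CPM in control libraries 11, 15 and 19 and at 37.4, 38.2, 40.3 and 36.5 CPM in cKO libraries 1, 5, 9 and 17. The cKO libraries were close to each other and all above control, with the lowest 1.48-fold above the highest control library. The group means were 21.8 ± 2.43 CPM (SD, n = 3) and 38.1 ± 1.63 CPM (SD, n = 4), a 1.75-fold difference (log2 0.80, SE 0.15). The gene spans 48099092 to 48141667 on chromosome 8.

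The 3 members with less RNA in cKO were all protein-coding. Pop4 was at 34, 38.0 and 30.2 CPM in control libraries 11, 15 and 19 and at 15.7, 19.6, 16.6 and 15.8 CPM in cKO libraries 1, 5, 9 and 17. Its lowest control library was 1.55-fold above its highest cKO library. The control mean was 34.1 ± 3.87 CPM (SD, n = 3) and the cKO mean 16.9 ± 1.80 CPM (SD, n = 4), 50.3% lower (log2 -1.01, SE 0.17). Pop4 is on chromosome 7, as is Hddc3, from 38262812 to 38271393.

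Pon2 was the most abundant member, with 682, 617 and 545 CPM in control libraries 11, 15 and 19 and 379, 331, 371 and 322 CPM in cKO libraries 1, 5, 9 and 17. All control libraries lay above all cKO libraries, the nearest 2 being 1.44-fold apart. Its mean was 614 ± 68.5 CPM (SD, n = 3) in control and 351 ± 28.6 CPM (SD, n = 4) in cKO, 42.9% lower (log2 -0.81, SE 0.13). The gene is on chromosome 6, from 5264620 to 5298345. The lysosomal sulfatase gene arsb, on chromosome 13 from 93771679 to 93943016, was at 47.5, 52.2 and 55.9 CPM in control libraries 11, 15 and 19 and at 34.2, 31.0, 32.4 and 30.2 CPM in cKO libraries 1, 5, 9 and 17. Here too no library crossed over, with a gap of 1.39-fold, the narrowest among the 9 members. The means were 51.9 ± 4.19 CPM (SD, n = 3) and 31.9 ± 1.74 CPM (SD, n = 4), 38.4% lower in cKO (log2 -0.70, SE 0.14).

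**Figure D1:**
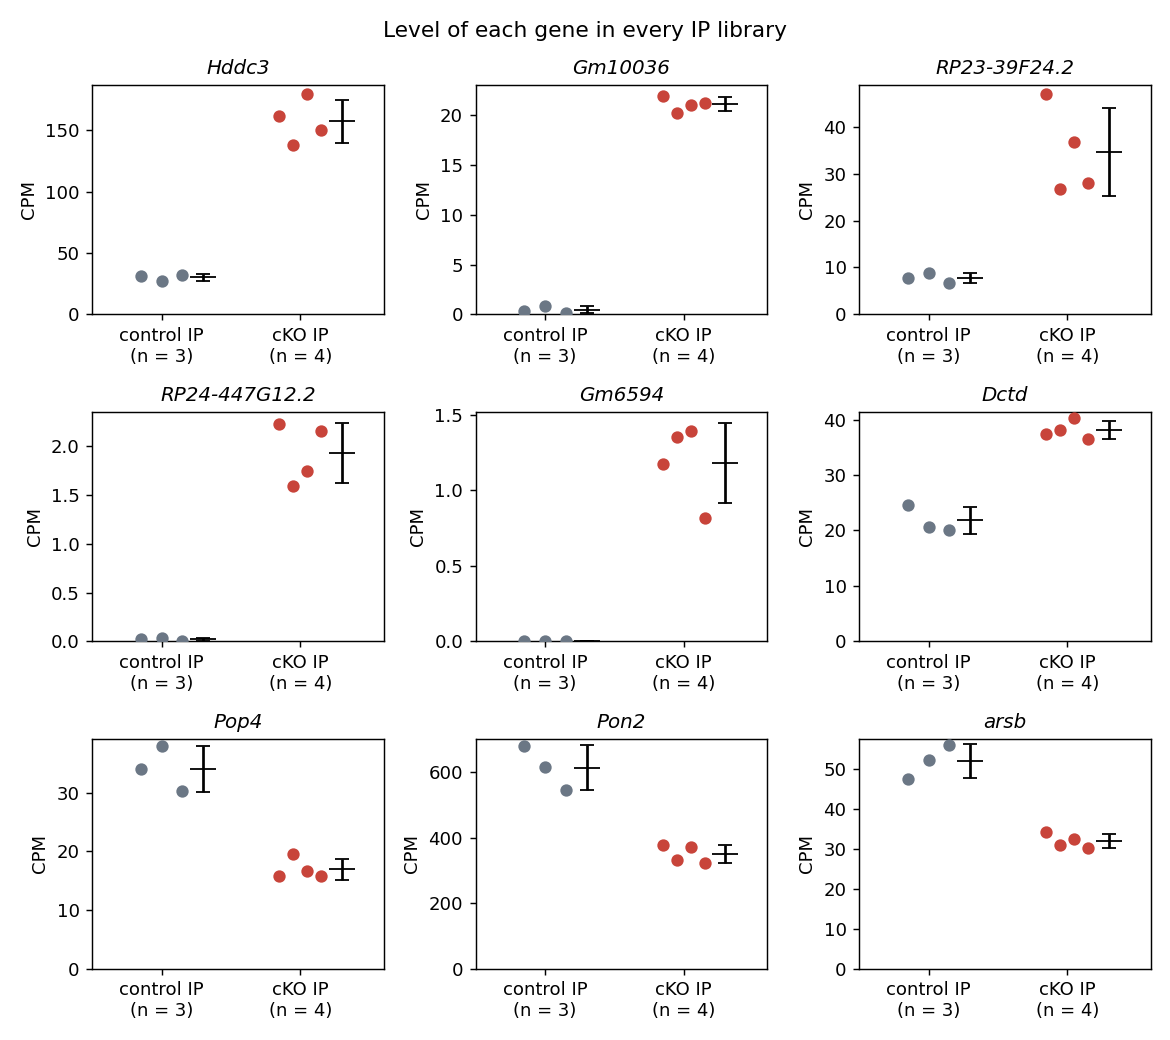
Levels of the 9 members in each IP library, in CPM, with control and cKO libraries side by side in a panel per gene. The control and cKO libraries of each gene do not overlap, from arsb with the narrowest gap (1.39-fold) to Gm10036 with the widest among genes counted in every library (23.2-fold).

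The promoters of coding members that were higher and lower in cKO are shown so that their sequences can be set side by side. Each window is 300 bases long and comes from RefSeq's promoters (GRCm38.p6), 250 bases before to 50 after the start used there, 5′ to 3′ on the gene's strand. That start is not always the outermost end of the gene given above. Capitals mark matches on either strand to the E-box CACGTG, the CCAAT box, the TATA box TATAAA or the GC box GGGCGG, and no matches overlap in the windows shown. The windows are Hddc3 at chr7:80342887-80343186 (plus strand), Pop4 at chr7:38271299-38271598 (minus strand) and Pon2 at chr6:5298291-5298590 (minus strand).
Hddc3: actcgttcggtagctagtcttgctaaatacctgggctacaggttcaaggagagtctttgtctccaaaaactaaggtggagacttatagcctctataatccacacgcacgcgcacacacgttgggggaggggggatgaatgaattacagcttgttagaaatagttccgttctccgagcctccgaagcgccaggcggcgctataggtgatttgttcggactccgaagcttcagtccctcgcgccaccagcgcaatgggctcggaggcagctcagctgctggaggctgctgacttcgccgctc
Pop4: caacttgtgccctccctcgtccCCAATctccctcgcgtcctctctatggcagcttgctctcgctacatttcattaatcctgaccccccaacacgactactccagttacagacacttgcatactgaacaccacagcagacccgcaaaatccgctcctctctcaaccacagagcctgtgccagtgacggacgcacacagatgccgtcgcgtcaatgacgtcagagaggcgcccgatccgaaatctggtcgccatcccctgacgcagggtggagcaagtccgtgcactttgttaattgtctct
Pon2: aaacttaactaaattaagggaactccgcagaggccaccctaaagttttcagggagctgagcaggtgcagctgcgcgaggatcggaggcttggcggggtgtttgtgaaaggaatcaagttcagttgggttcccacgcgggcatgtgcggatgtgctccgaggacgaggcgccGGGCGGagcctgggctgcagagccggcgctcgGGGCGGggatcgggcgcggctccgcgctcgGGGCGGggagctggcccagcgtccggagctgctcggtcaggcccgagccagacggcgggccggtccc

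The Hddc3 window held none of the 4 motifs, the Pop4 window had 1 CCAAT and the Pon2 window had 3 GGGCGG. Over all 32851 RefSeq promoter windows of this length, CCAAT was in 37.4%, GGGCGG in 35.7%, TATAAA in 13.6% and CACGTG in 7.15%, so these matches are common. The Arsb window had 1 GGGCGG, and 2 of 3 Dctd windows had both CCAAT and GGGCGG. No window of a member held CACGTG or TATAAA. Hddc3, Pop4, Pon2 and Arsb had 20, 19, 31 and 22 CG dinucleotides in their windows, against a median of 7 over all windows. Of all windows, 73.5%, 71.9%, 89.4% and 76.9% held fewer CG than those of Hddc3, Pop4, Pon2 and Arsb, so such counts are common. The 3 Dctd windows had 7, 11 and 11. A match is a description of letters, and its absence says nothing about a factor. Positions and promoters were not found for RP23-39F24.2 and RP24-447G12.2, and Gm10036 and Gm6594 had no promoter entry.

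**Figure D2:**
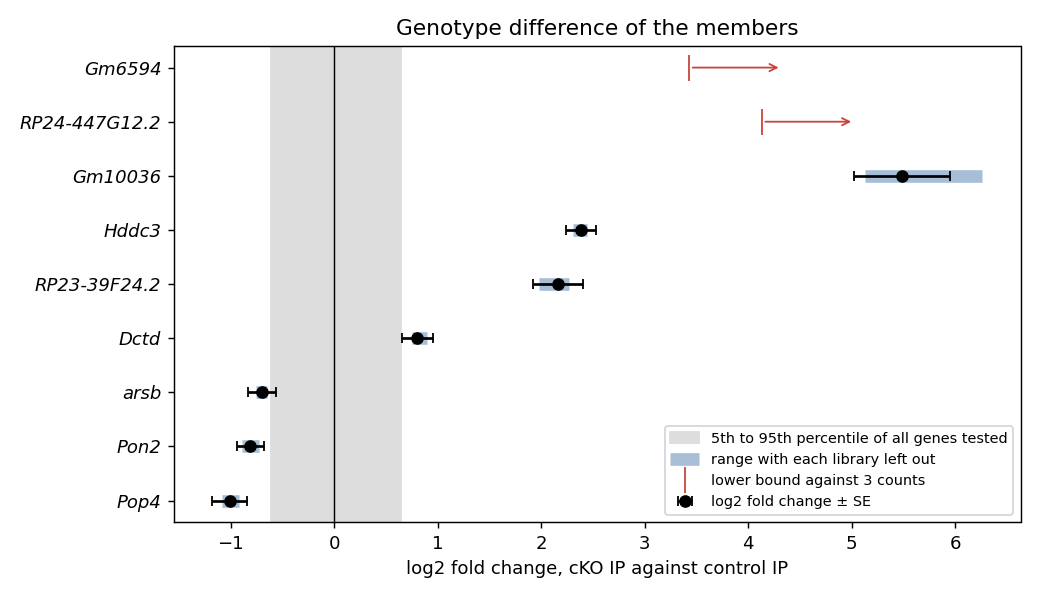
Log2 fold change (cKO against control) of each member, from the fit across all genes, with its standard error, or as a lower bound for RP24-447G12.2 and Gm6594. The coding members span -1.01 (Pop4) to 2.39 (Hddc3), and Gm10036 reaches 5.49.

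The pseudogene and clone members were low or at the floor in control. Gm10036, a RefSeq pseudogene on chromosome 18 from 15832774 to 15833370, was at 0.356, 0.872 and 0.144 CPM in control libraries 11, 15 and 19 and at 21.97, 20.2, 21.0 and 21.2 CPM in cKO libraries 1, 5, 9 and 17. The cKO libraries were within a narrow band and the lowest was 23.2-fold above the highest control library. The means were 0.457 ± 0.375 CPM (SD, n = 3) and 21.1 ± 0.706 CPM (SD, n = 4), 46.1-fold apart (log2 5.49, SE 0.47). The control level rests on 14.3, 24.5 and 3.2 counts in libraries 11, 15 and 19, so that the size of the fold is less certain than its direction, and without library 15 the log2 difference was 6.26.

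RP23-39F24.2 was at 7.67, 8.87 and 6.68 CPM in control libraries 11, 15 and 19 and at 47.0, 26.8, 36.9 and 28.1 CPM in cKO libraries 1, 5, 9 and 17. Libraries 1 and 9 were higher than 5 and 17, yet the lowest cKO library was 3.02-fold above the highest control library. The means were 7.74 ± 1.10 CPM (SD, n = 3) and 34.7 ± 9.35 CPM (SD, n = 4), a 4.48-fold difference (log2 2.16, SE 0.24). This clone-named gene was among the 6 genes called by edgeR's quasi-likelihood test only as long as all 3 control libraries were used. It was not called without library 11, 15 or 19.

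RP24-447G12.2 had 1, 1 and 0 counts in control libraries 11, 15 and 19 and 36, 41, 35 and 29 counts in cKO libraries 1, 5, 9 and 17. It was at or under the floor of 3 counts in every control library, and its mean of 1.92 ± 0.309 CPM (SD, n = 4) in cKO was at least 17.5-fold higher than that floor, which is 0.110 CPM on average over the control libraries. Gm6594, a RefSeq pseudogene on chromosome 17 from 82539162 to 82540345, had 0 counts in each of the 3 control libraries and 19, 35.1, 28.2 and 11.1 counts in cKO libraries 1, 5, 9 and 17. Its mean of 1.18 ± 0.263 CPM (SD, n = 4) in cKO was at least 10.8-fold higher than the floor. Both genes are detected in every cKO library and not above the floor in any control library, but at a level of about 1 to 2 CPM. Floors cover counting error only. Kallisto shares out reads that fit more than 1 transcript, and pseudogenes by their nature resemble another gene, so the counts of Gm10036 and Gm6594 may be less certain. How many of their reads, or of those of the clone-named genes, fit another transcript was not tested.

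The members also differed in how much their level varied among the 4 cKO libraries. The coefficient of variation (SD over mean) was 3.34% for Gm10036, 4.29% for Dctd and 11.04% for Hddc3, against a median of 24.2% over all genes tested. A lower value than that of Gm10036 was found in 0.677% of genes, and a lower value than that of Dctd in 1.44%. At the other end, 55.3% of genes had a lower value than RP23-39F24.2, and 45.8% had a lower value than Gm6594. Genes chosen for a clear gap between groups tend to have little spread within them, so these shares describe the choice as much as the genes.

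The genes around the members were examined because their position does not use their values. Of 62 tested genes that start within 1 Mb of the start of one of the 7 placed members, 0 passed edgeR's quasi-likelihood test (lowest Benjamini-Hochberg adjusted p 0.9996), the exact test or DESeq2. At an unadjusted p under 0.05 there were 4 (6.45%), against 2.58% of all genes tested, and 3 (4.84%) did not overlap between genotypes, against 5.11% of all genes. The neighbours of Hddc3 made up 29 of the 62, Pon2 and arsb had 8 each, Dctd 7, Pop4 4, and Gm10036 and Gm6594 3 each. Among the 29 around Hddc3, 3 (10.3%) had an unadjusted p under 0.05 and 2 (6.90%) did not overlap between genotypes.

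None of the nearest neighbours passed this test. Unc45a, a myosin chaperone gene whose start lies at -17.8 kb from that of Hddc3, was at 18.8 ± 4.44 CPM (SD, n = 3) in control and 18.9 ± 1.27 CPM (SD, n = 4) in cKO, and Man2a2, a glycan-trimming mannosidase gene 6.02 kb after it, was at 9.28 ± 2.79 and 12.8 ± 8.60 CPM. Rccd1, next beyond Unc45a at -48.5 kb, was at 0.303 ± 0.0616 CPM (SD, n = 3) in control and 1.13 ± 0.635 CPM (SD, n = 4) in cKO, a log2 difference of 1.86 (SE 0.93) near that of Hddc3, but at a low level, with overlapping genotypes and without passing the test. Beside Gm10036, the astrocyte water channel gene Aqp4 was at 663 ± 99.9 and 665 ± 138 CPM, a log2 difference of 0.0049 (SE 0.18), and the adhesion gene Cdh2 differed by -0.15 (SE 0.18). Pon3, a paralogue of Pon2 whose start lies at -48.4 kb from its own, was at 6.59 ± 0.455 CPM in control and 5.76 ± 1.53 CPM in cKO, a log2 difference of -0.20 (SE 0.33), while Asb4 on the other side of Pon2 differed by -0.42 (SE 1.38). Around Dctd, Wwc2 and Tenm3 differed by 0.0098 (SE 0.14) and 0.18 (SE 0.21), and around arsb, Jmy and Lhfpl2 differed by 0.21 (SE 0.19) and 0.19 (SE 0.23). Plekhf1 beside Pop4 differed by -0.071 (SE 0.30) and Pkdcc beside Gm6594 by 0.83 (SE 0.89), all on the log2 scale.

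The 4 neighbours with an unadjusted p under 0.05 are named after their values were seen, and none held after adjustment in edgeR's quasi-likelihood test. Alpk3 and Pde8a start 714 kb and 870 kb from Hddc3, and their log2 differences were 2.49 (SE 0.89) and 0.82 (SE 0.30), with Alpk3 at 0.220 CPM in control and 1.29 CPM in cKO. Both separated the genotypes without overlap, as did 5.11% of all genes tested. Pde8a, a cyclic AMP phosphodiesterase gene, was at 7.70 ± 2.49 CPM (SD, n = 3) in control and 13.6 ± 2.86 CPM (SD, n = 4) in cKO. Zfp592, also near Hddc3, differed by 0.58 (SE 0.24), and Eml4, near Gm6594, by 0.67 (SE 0.29). All 4 were higher in cKO, and that of Alpk3 was as large as the difference of Hddc3 but with a wider standard error.

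**Figure D3:**
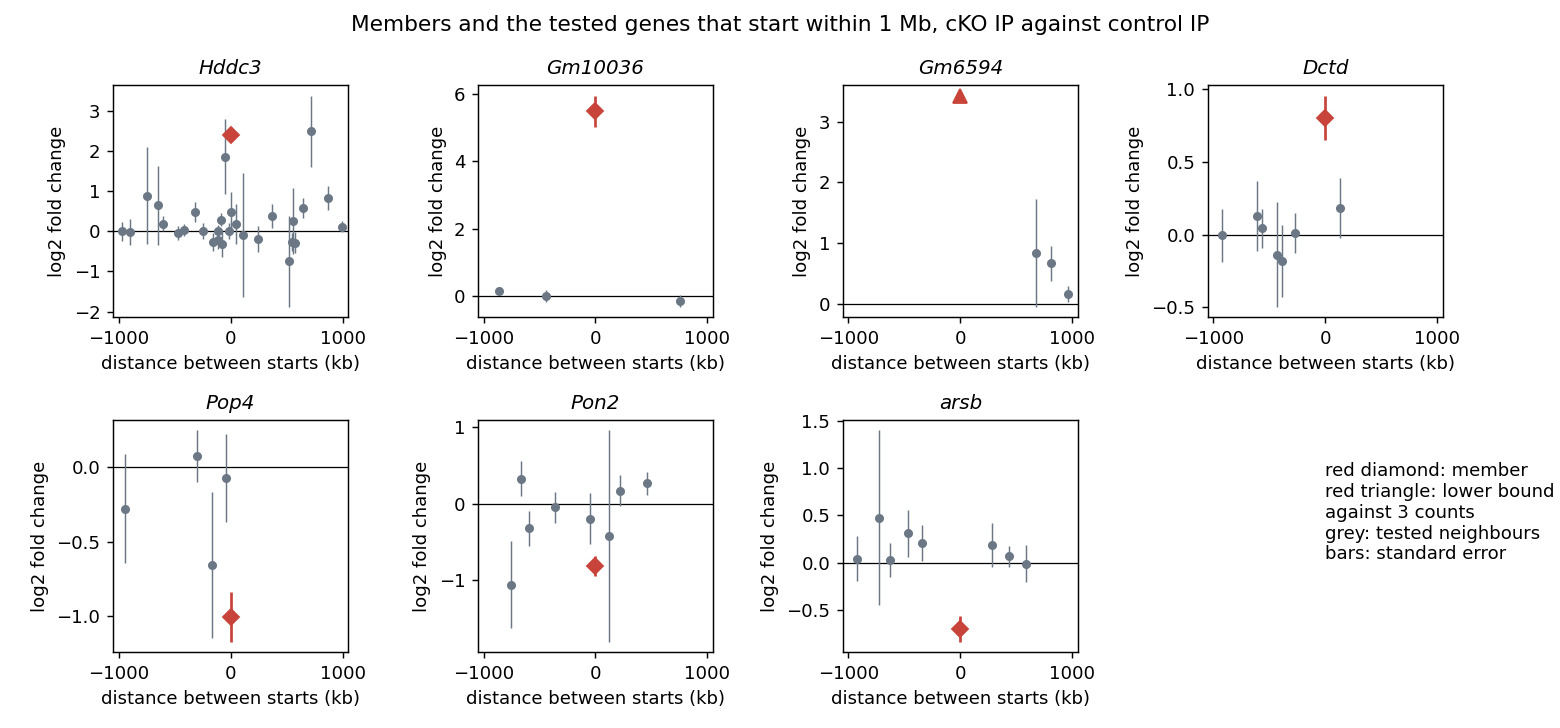
Log2 fold change (cKO against control) of tested genes within 1 Mb of each placed member, against the distance of their start from the start of the member in kb, with the member itself marked. Of the 62 neighbours, 0 passed the test, with Hddc3 at 2.39 and the nearest gene on either side of it at 0.0056 (Unc45a) and 0.47 (Man2a2).

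Partners of the coding members by function were taken from lists written by hand from gene symbols, with members left out. None of their genes passed edgeR's quasi-likelihood test in either direction (lowest Benjamini-Hochberg adjusted p 0.9996). For all genes tested the median log2 difference was 0.01 and the central 90% of genes ran from -0.62 to 0.64. Beside Dctd, the pyrimidine deoxynucleotide list had 20 of 22 genes tested, 10 higher and 10 lower in direction, with a median of -0.02 and a range of -0.38 to 0.47. Nme1 and Nme2, the nucleoside diphosphate kinases, differed by 0.0083 (SE 0.12) and -0.087. Rrm2, a subunit of ribonucleotide reductase, was at 7.23 ± 0.775 CPM (SD, n = 3) in control and 10.01 ± 1.91 CPM (SD, n = 4) in cKO, and Samhd1, which degrades deoxynucleotides, was at 8.20 and 6.28 CPM.

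Pop4 works as part of a complex, and its partners were compared with it. Of 12 genes listed, 11 were tested, of which 4 were higher and 7 lower in direction, with a median of -0.06. Elac2, counted among the 4 higher, encodes RNase Z and is no subunit of RNase P or RNase MRP. It differed by 0.05 (SE 0.20). Rpp14 differed by 0.04 (SE 0.17), Rpp25l by -0.066, Rpp25 by -0.36 (SE 0.25) and Rpp40 by -0.27 (SE 0.35) on the log2 scale. Pop1, the largest subunit, had a log2 difference of -1.01 as Pop4 did, but with an SE of 0.58 at 3.73 CPM in control and 1.87 CPM in cKO, and it did not pass the test.

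For Hddc3, 14 genes that make or use NADPH were set beside it. They had a median log2 difference of -0.11, with 5 higher and 9 lower in direction and a range of -0.44 to 0.27. Idh2, the mitochondrial NADP-dependent isocitrate dehydrogenase, was at 510 ± 97.5 CPM (SD, n = 3) in control and 509 ± 121 CPM (SD, n = 4) in cKO. Aldh1l1, a folate enzyme and astrocyte marker, was at 523 ± 149 and 411 ± 97.5 CPM, and Nnt, the mitochondrial transhydrogenase, was at 10.7 ± 8.08 and 7.89 ± 2.43 CPM. For each of these 3 genes the SD of at least 1 genotype was larger than the difference between the means, unlike for Hddc3.

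The list beside Pon2 held paraoxonase genes and beta-lactamase-like genes. Of its genes, 5 of 6 were tested, with 2 higher and 3 lower in direction and a range of -0.29 to 0.17. Pon3, the only paraoxonase gene among those tested, differed by -0.20 (SE 0.33). The beta-lactamase-like Mblac2 and Lactb differed by 0.11 (SE 0.23) and -0.29 (SE 0.21). Beside arsb, 18 of 22 sulfatase and glycosaminoglycan-degrading genes were tested, 8 higher and 10 lower in direction, with a median of -0.02. By edgeR's quasi-likelihood test 2 of the 18 had an unadjusted p under 0.05, against 2.58% of all genes tested. Hexa, Hyal2 and Arsj, given next, are among the 8 higher ones, in the direction opposite to arsb. Hexa, a lysosomal hexosaminidase subunit, was at 82.8 ± 11.9 CPM (SD, n = 3) in control and 89.8 ± 9.39 CPM (SD, n = 4) in cKO. Hyal2, a hyaluronidase, was at 10.2 and 13.5 CPM, and Arsj, another arylsulfatase, was at 0.367 and 2.11 CPM (log2 2.47, SE 1.11). Arsj did not pass adjustment in edgeR's quasi-likelihood test.

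**Figure D4:**
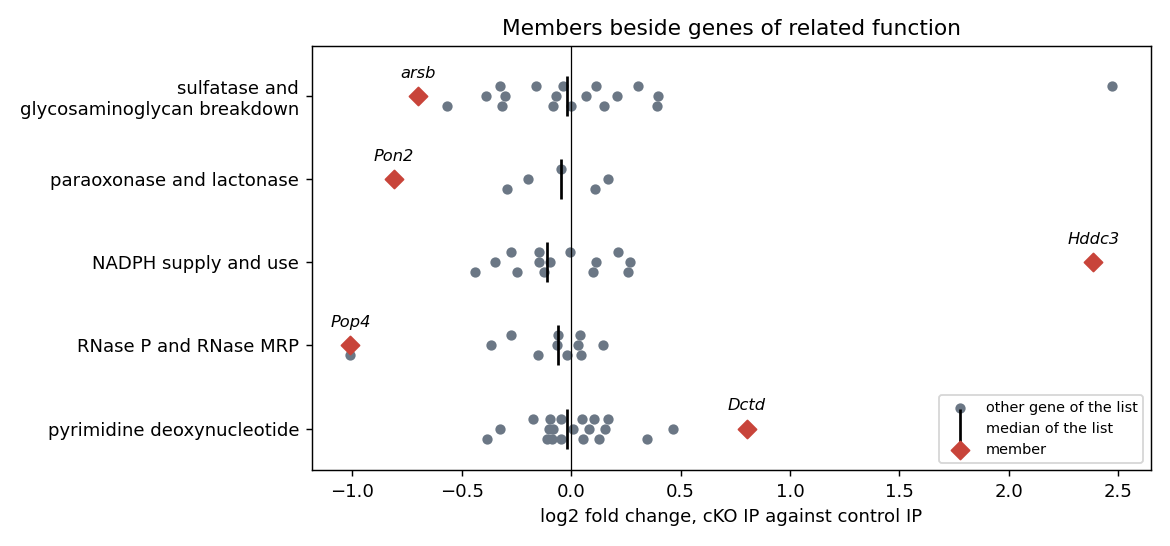
Log2 fold change (cKO against control) of the tested genes of each function list, with the member each list belongs to marked separately. The list medians lie between -0.11 and -0.02, while the members lie at 2.39 (Hddc3), 0.80 (Dctd), -1.01 (Pop4), -0.81 (Pon2) and -0.70 (arsb).

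The genes most like Hddc3 over the 7 libraries were ranked by Pearson's r of log2 CPM, as a description over libraries that share their genotype split. The closest that are no members were Gm10093 (r = 0.997), Cap1 (0.989), Ppt1 (0.985), Tmem51 (0.982) and Iqcc (0.980). Gm10093 lies on chromosome 17, and Cap1, Ppt1 and Iqcc lie on chromosome 4, which the choice of members left out. Among members, r with Hddc3 was 0.990 for Gm6594, 0.987 for RP24-447G12.2, 0.978 for Dctd, 0.970 for RP23-39F24.2 and 0.963 for Gm10036. It was negative for Pop4 (-0.981), arsb (-0.961) and Pon2 (-0.944). With the libraries in 2 groups, a gap of this kind alone gives an r near 1 or -1.

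The differences of the members kept their direction when single libraries were left out, which follows from the lack of overlap between the genotypes. Over the 7 omissions the log2 difference of Hddc3 ranged from 2.31 to 2.44, that of Dctd from 0.75 to 0.90 and that of RP23-39F24.2 from 1.98 to 2.27. Pop4 ranged from -1.09 to -0.92, Pon2 from -0.89 to -0.73 and arsb from -0.76 to -0.64. Hddc3 and Gm10036 were called by edgeR's quasi-likelihood test in all 7 omissions, which use the libraries that chose them. Gm10036 was tested there only through its counts in cKO. Scaled by library size in place of TMM, Pon2 was called in addition, for 4 members of 7 genes.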

How the data were processed

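RNA from cortical TRAP immunoprecipitates was measured by RNA-seq in mice labelled control and cKO. The submitters' processing notes name cutadapt 1.15 and kallisto 0.44.0. The authors trimmed the reads, pseudoaligned them to GENCODE vM17 transcripts and deposited estimated counts per gene symbol, without normalization. The series has 18 samples. Of the columns of the table, 7 could be tied to a genotype through the study's source data. The other 11, which the table names only by number, were not used in any step, so IP was not compared with input and the other control IP samples are not analysed here.

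The deposited estimated counts were rounded to integers. Genes were filtered with filterByExpr, libraries were scaled by TMM, and genotypes were compared with the quasi-likelihood test of edgeR 4.0.16 (R 4.3.3), with Benjamini-Hochberg adjustment at 0.05 over all 13296 genes tested. Alternatives were edgeR's exact test, DESeq2 1.42.0, RLE and library-size scaling, testing all genes with a count, requiring 1 CPM or more in 3 libraries, and leaving out each library. The tests were tested on simulated data first. CPM are given on TMM-scaled library sizes, and fold changes against control libraries with 3 counts or fewer are lower bounds against 3 counts per library. Libraries held 12570324 to 40734322 counts, so 3 counts are 0.0762 to 0.222 CPM. No pair of libraries of 1 genotype agreed within counting noise (lowest chi-square per degree of freedom 32.86). The study describes its RNA-seq IP sets as 3 control and 4 cKO mice. Its source data list the libraries separately, and no source used here names the animal of each library. The p-values measure only the spread between these libraries.

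The members, lists and neighbourhood rule were chosen with earlier results of these data known. Genes named are the 9 members, the tested genes nearest to each placed member, in each list the 2 most abundant and the 2 with the largest change at a mean of 5 CPM or more (not all are printed, and 1 is not reported here), and the 5 genes most like Hddc3. Neighbours with an unadjusted p under 0.05, Rccd1, Pop1, Arsj and Tox3 were chosen after their values were seen. Positions and promoters are those of RefSeq for GRCm38.p6. Of the tested genes, 12422 were matched by symbol, 325 by synonym and 2 by symbol in another case, arsb among them, and 547 (4.11%) were not matched.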

Additional observations from a re-analysis of the deposited data

How the results depend on the processing

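The number of genes called by edgeR's quasi-likelihood test was 6, and it was 18 by edgeR's exact test and 21 by DESeq2, which called all 9 members; the cause was not tested. It was 6 without a low-count filter, with a minimum of 1 CPM and with RLE scaling, and 7 with library-size scaling. Leaving out 1 library gave 4 to 6 calls, the lowest without control library 15, and leaving out control library 11 or 19 gave 5. RP23-39F24.2 lost its call without any 1 of the 3 control libraries. Neighbouring genes and function lists had 0 calls under every alternative run. No member changed direction, which for the omission of single libraries follows from the lack of overlap between the genotypes. The fitted log2 difference of Gm10036 moved to 6.26 without control library 15, and the fitted values of RP24-447G12.2 and Gm6594, at or under 3 counts in control, depend on the prior count and are not given. Summing each pseudogene with the gene it resembles was not run, as the tables used here do not name that gene. No paired analysis was possible because the columns carry no replicate numbers. Depth limits the control level of Gm10036, RP24-447G12.2 and Gm6594, and 3 against 4 libraries limit the precision of all differences.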

Other observations

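Gm6594 was 1 of 2 genes called by edgeR's exact test on chromosome 17, of 609 tested genes there. The other, Gm10093, at 78491565 to 78493541 (GRCm38.p6), lies 4.05 Mb from Gm6594 and was also the gene most like Hddc3 over the libraries. Hddc3 and Pop4 were the 2 genes called on chromosome 7, of 968 tested, with opposite directions. Over all chromosomes this test called 18 of 13296 genes (0.135%). Chromosome 4, which the choice of members left out, had 7 calls of 786 tested genes. These values use the contrast that chose the members and are given with no test.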
